A study of Mus musculus with 12 samples.

Results

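The genes described here encode the proteins that turn cholesterol into testosterone in the Leydig cell, the androgen-producing cell between the seminiferous tubules of the testis. They are Star, Cyp11a1, Cyp17a1, Hsd3b1, Hsd3b6, Hsd17b3, Srd5a1, Fdx1, Fdxr and Por. For each gene, the reads of all transcripts carrying its symbol and assembled as identical to, contained in, spliced alternatively to or overlapping an annotated transcript were summed, which gave 10 genes with 24 transcripts out of 24516 genes with a symbol and 71967 transcripts in all. RNA came from whole testes of C57BL/6 males at 3, 6, 12 and 18 months after birth (3M, 6M, 12M and 18M), with 3 mice per age and 1 library per mouse. All samples were labelled wild type and no treatment was named, so age was the labelled difference between the groups. Batches of collection or library preparation were not named. The libraries are named by age and replicate number (3M-1 to 18M-3). Each replicate was taken as 1 mouse, and its number is called the mouse number below. The study's methods leave it unclear if littermates were among the mice of an age, and ribosomal RNA was removed in place of a poly(A) selection, so unspliced and non-polyadenylated RNA could be counted.

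Testosterone synthesis begins when STAR, a transport protein, brings cholesterol to the inner mitochondrial membrane. There CYP11A1 cuts the side chain and forms pregnenolone, using electrons that pass from NADPH through ferredoxin reductase (Fdxr) and ferredoxin (Fdx1). In the endoplasmic reticulum the 3 beta-hydroxysteroid dehydrogenases (Hsd3b1, Hsd3b6) form progesterone, CYP17A1 forms androstenedione with electrons from cytochrome P450 reductase (Por), and HSD17B3 forms testosterone, which SRD5A1 can reduce further. Luteinizing hormone drives the pathway through its receptor, encoded by Lhcgr.

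The libraries held between 50924104 and 71803379 estimated reads, with a median of 56236682, and the members received between 245 reads (Srd5a1) and 10699 reads (Cyp17a1) in a library. All 10 genes passed the filter on low counts in each comparison. Levels across ages are given below as CPM (reads scaled to a common library total) after TMM scaling, a correction for differences in library composition, and levels across genes as FPKM, which is also scaled by length. Markers of the labelled tissue were present: the summed level of 6 spermatid markers lay between 11526 and 17176 CPM, that of 10 Sertoli cell markers between 1156 and 1529 CPM, and Insl3, a hormone made by Leydig cells, reached a mean of 903 FPKM at 3M. Of 6 markers of the neighbouring epididymis, Lcn5 and Adam7 had 0 reads in all libraries, Lcn8, Rnase9 and Crisp1 had at most 4, 7 and 17, and Rnase10 had between 195 and 275. The sum of Crisp1 and Rnase10, which passed the filter on low counts, lay between 3.78 and 4.30 CPM at 3M and between 3.91 and 4.79 CPM at 18M.

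Hsd3b1 and Hsd3b6 lie beside each other on chromosome 3 and are shown first, because their near identity bears on how reads could be divided between them. Their coding sequences have the same length of 1119 nt and were identical at 1007 positions (89.99%), with no gap and with a longest identical stretch of 72 nt, which is shorter than a read of 101 nt. The first 120 coding bases, from GENCODE vM21, are given from the start codon, with the bases that differ between the genes in capitals.
Hsd3b1: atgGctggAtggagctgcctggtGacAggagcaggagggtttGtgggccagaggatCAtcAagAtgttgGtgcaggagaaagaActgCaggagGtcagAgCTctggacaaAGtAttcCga
Hsd3b6: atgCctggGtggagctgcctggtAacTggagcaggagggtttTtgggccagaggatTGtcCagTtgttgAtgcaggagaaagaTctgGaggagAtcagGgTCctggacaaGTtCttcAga
These stretches differ at 20 of 120 bases. None of the 1755 words of 101 nt in the leading Hsd3b1 transcript occurred in another annotated gene, and 55 of 1702 words (3.23%) of Hsd3b6 occurred in Hsd3b3, and 47 of these also in Hsd3b2, relatives that had at most 4 and 62 reads in a library. Of the other members, Srd5a1 shared 377 of 2544 words (14.8%) with the overlapping annotation Gm17108, and the leading transcripts of the remaining 7 genes shared none.

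Upstream sequence is shown for the genes whose slope on age had the smallest p-values and which have an entry in the RefSeq promoter table (GRCm38.p6), because these genes had lower mean levels at 18M than at 3M. Each run holds the 250 bases before the annotated start and, as the last capital, the start base, with any searched motif also in capitals.
Cyp11a1, chr9:58014702-58014952, plus strand: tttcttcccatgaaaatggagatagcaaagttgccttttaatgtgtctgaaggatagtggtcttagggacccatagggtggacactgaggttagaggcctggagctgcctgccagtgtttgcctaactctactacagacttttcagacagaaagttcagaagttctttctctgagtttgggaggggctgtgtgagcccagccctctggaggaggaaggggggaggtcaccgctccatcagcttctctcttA
Hsd17b3, chr13:64089201-64089451, minus strand: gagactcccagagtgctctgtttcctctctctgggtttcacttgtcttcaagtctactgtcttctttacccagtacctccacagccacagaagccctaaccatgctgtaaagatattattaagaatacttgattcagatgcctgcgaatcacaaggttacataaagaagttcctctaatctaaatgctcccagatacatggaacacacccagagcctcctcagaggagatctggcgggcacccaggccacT
Hsd3b6, chr3:98814443-98814693, minus strand: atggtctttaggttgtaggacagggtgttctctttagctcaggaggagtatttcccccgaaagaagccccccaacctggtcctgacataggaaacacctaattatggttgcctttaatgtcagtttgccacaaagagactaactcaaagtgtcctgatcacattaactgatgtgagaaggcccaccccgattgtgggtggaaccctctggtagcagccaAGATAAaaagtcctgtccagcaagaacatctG
A set of 3 motifs was searched on both strands of windows of 250 bases before to 50 bases after a start. These were AAGGTCA for NR5A1, AGATAA for GATA factors and GGGCGG, the SP1 GC box. Only these exact letters were searched, so a window without them can still hold another form of a site. The table covered 8 of the 10 members with 9 starts, and named no Star or Cyp17a1. The letters AGATAA were found on either strand in 2 of 9 windows, against 11.2% of all 32851 windows. In Hsd3b6 their first base lay 31 before the start, and in Hsd3b1 134 before the start. The GC box was found in 5 of 9 windows (Por, Fdx1, Fdxr, Srd5a1 and the upstream Cyp11a1 start) against 35.7% of all windows. The exact NR5A1 letters were found in 0 of 9 against 4.72%, a share at which 0 in so few windows says little.

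**Figure D1:**
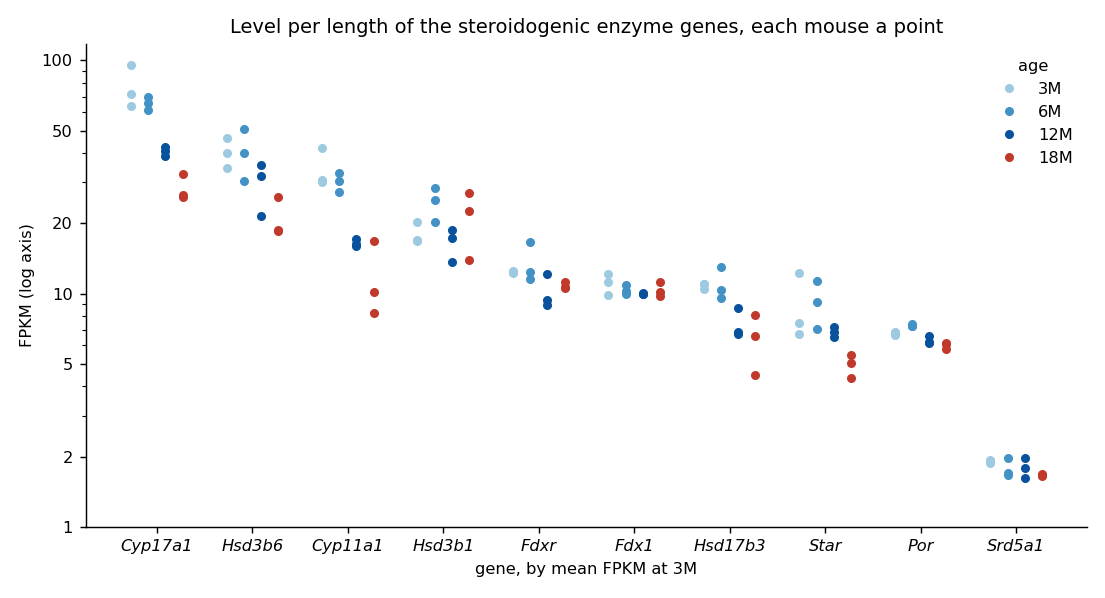
FPKM of the 10 genes on a log axis, with each point a mouse and the ages in separate colors. Cyp17a1 had the highest mean at each age and Srd5a1 the lowest, and the 18M points of Cyp17a1 lie below 33 FPKM while those of 3M lie above 63 FPKM.

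Per unit of length, Cyp17a1 was the most abundant member at each age, with a mean of 77.1 ± 16.7 FPKM (SD, n = 3) at 3M and 28.3 ± 3.62 FPKM at 18M. At 3M it was followed by Hsd3b6 at 40.4 ± 5.88 FPKM, Cyp11a1 at 34.3 ± 6.72 FPKM and Hsd3b1 at 18.0 ± 1.93 FPKM. Fdxr (12.4 ± 0.127 FPKM), Fdx1 (11.1 ± 1.17 FPKM), Hsd17b3 (10.8 ± 0.316 FPKM), Star (8.82 ± 2.97 FPKM), Por (6.77 ± 0.0943 FPKM) and Srd5a1 (1.90 ± 0.0287 FPKM) completed the order. The mice of neighbouring genes overlapped for Hsd3b6 and Cyp11a1, for Fdx1 and Hsd17b3, for Hsd17b3 and Star and for Star and Por, so these places were not separated beyond the spread between mice.

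The order changed with age among its upper places, as the plot of FPKM by gene shows. At 18M Cyp17a1 and Hsd3b1 (21.2 ± 6.61 FPKM) overlapped, as did Hsd3b1 and Hsd3b6 (21.0 ± 4.27 FPKM), and Cyp11a1 stood at 11.7 ± 4.47 FPKM, where it overlapped Fdxr. Star stood below Por at 18M, with 4.95 ± 0.570 against 6.00 ± 0.187 FPKM and no overlap between them. Srd5a1 was separated from its upper neighbour at each age.

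**Figure D2:**
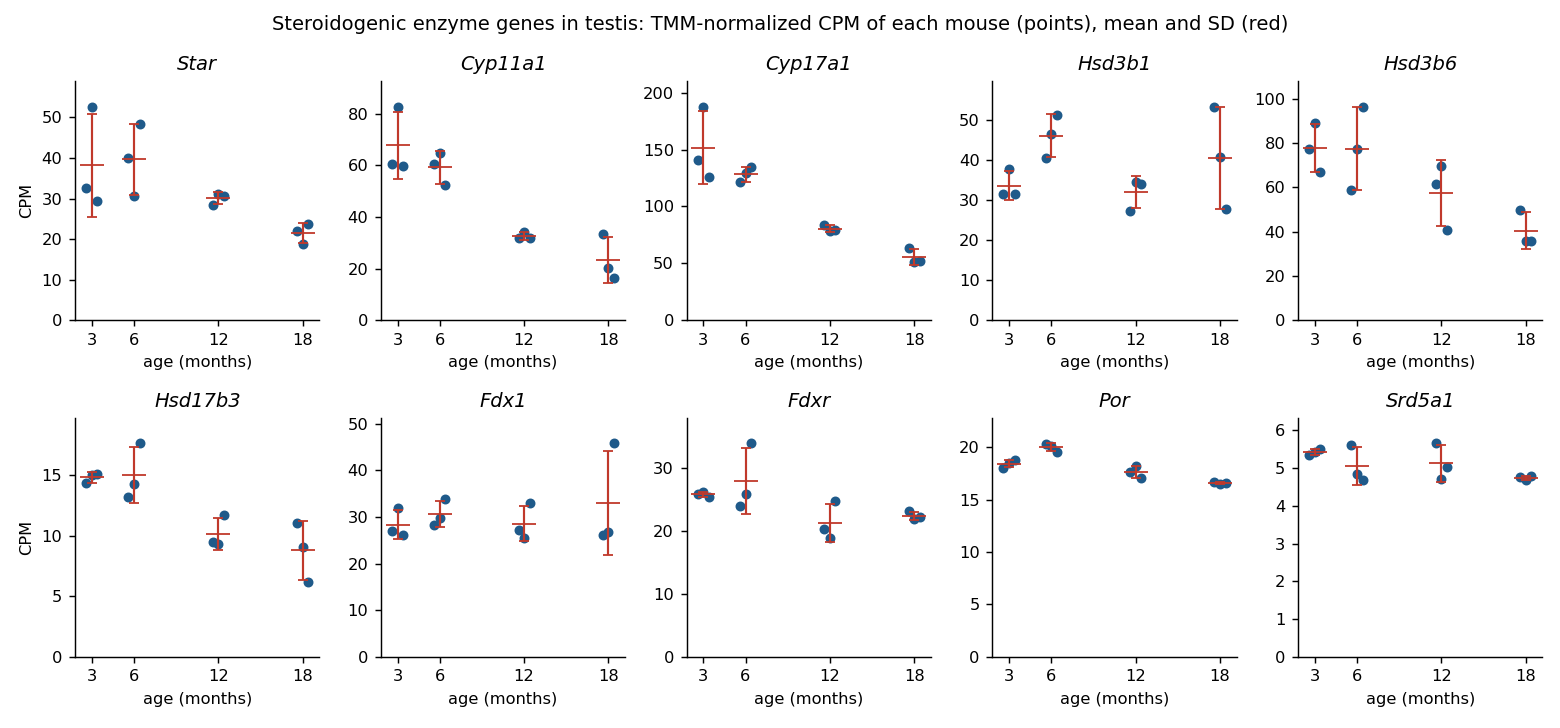
TMM-normalized CPM of each gene against age in months, with each point a mouse and the red bar the mean and SD of 3 mice. The 18M points of Cyp17a1 and Cyp11a1 lie below all 3M and 6M points, while those of Hsd3b1 and Fdx1 overlap the 3M points.

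Cyp17a1 and Cyp11a1, which encode the 2 cytochromes P450 among the members, showed the largest declines of the 10 genes. Cyp17a1 (chr19:46667165-46673000, minus strand, 8 exons, 1 transcript) measured 141, 188 and 126 CPM in the 3M mice and 121, 129 and 135 CPM in the 6M mice. It measured 84.1, 78.0 and 79.1 CPM at 12M and 63.7, 51.2 and 51.9 CPM at 18M. Each 12M mouse was below each younger mouse, and each 18M mouse was below each 12M mouse. Its slope over the 12 libraries was -0.0987 log2 units per month (adjusted p = 1.18e-04, SE 0.00778, edgeR quasi-likelihood test) and it ranked 3 among the p-values of 25166 genes. The fitted level fell by 64.2% over 15 months.

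Cyp11a1 (chr9:57998024-58027031, plus strand, 3 transcripts), the side-chain cleavage enzyme, measured 60.6, 82.8 and 59.7 CPM at 3M and 60.3, 64.9 and 52.5 CPM at 6M. The values at 12M were 31.9, 34.3 and 31.8 CPM and those at 18M 33.2, 20.1 and 16.4 CPM. The older 2 ages did not overlap the younger 2, whereas 18M-1 lay among the 12M mice. The value of 6M-3 includes 1289 reads (43.2%) of MSTRG.20966.2, an assembled transcript with 0 reads in the other 11 libraries. The main transcript NM_019779 had 1643 reads in 6M-3 and 1867, 1825 and 1999 in the 12M libraries. The separation of 6M-3 from the older mice therefore depends on how those 1289 reads are assigned. The fitted slope per month was -0.108 on the log2 scale (SE 0.0134, adjusted p = 0.00498, edgeR), the rank was 11, and the fitted level fell by 67.6% over 15 months. With annotated transcripts alone the slope was -0.10 with an adjusted p of 0.0862.

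Star (chr8:25808474-25815982, plus strand, 7 exons), whose product delivers cholesterol to CYP11A1, measured 32.6, 52.7 and 29.3 CPM at 3M, 40.0, 30.6 and 48.3 CPM at 6M, 28.5, 31.1 and 30.7 CPM at 12M and 21.9, 18.8 and 23.7 CPM at 18M. All 18M mice were below all younger mice, and the 3M and 6M mice were spread over a wide range (coefficients of variation of 33.1% and 22.3%). The value of 12M-2 includes 945 reads (56.8%) of MSTRG.19488.1, an assembled transcript that overlaps the annotated gene Lsm1. The annotated NM_011485 had 718 reads in 12M-2 and 1178, 955 and 1603 in the 18M libraries. The separation of 12M-2 from the 18M mice therefore depends on how those 945 reads are assigned. The slope of -0.0592 log2 units per month (SE 0.0133, unadjusted p = 7.01e-04) had an adjusted p of 0.106 in edgeR and did not pass.

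The levels of the 3 beta-hydroxysteroid dehydrogenase genes ran differently over the ages. Hsd3b6 (chr3:98805504-98814443, minus strand, 4 exons) measured 77.3, 88.9 and 66.9 CPM at 3M, 58.9, 77.2 and 96.4 CPM at 6M, 61.7, 69.8 and 40.8 CPM at 12M and 49.9, 35.9 and 35.6 CPM at 18M. The 18M mice were below all 3M and 6M mice, and 12M-3 lay within the 18M range. Hsd3b1 (chr3:98852194-98859794, minus strand) measured 31.5, 37.8 and 31.5 CPM at 3M, 40.5, 46.6 and 51.2 CPM at 6M, 27.3, 34.6 and 33.9 CPM at 12M and 53.3, 40.9 and 27.7 CPM at 18M, so that 18M-1 was above all younger mice and 18M-3 was near the lowest of them. The slope was -0.0660 (SE 0.0138, adjusted p = 0.0899) for Hsd3b6 and 0.00199 (SE 0.0152, adjusted p = 0.966) for Hsd3b1 in log2 units per month (edgeR), and neither passed. The Hsd3b1 slope turned negative in limma on FPKM, with annotated transcripts alone and without 3M-1, 3M-3, 18M-1 or 18M-2.

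In FPKM, Hsd3b1 stood at 42.3%, 43.7% and 48.7% of Hsd3b6 in the 3M mice and at 66.8%, 63.1% and 55.7% in the 6M mice. At 12M the values were 43.0%, 52.7% and 80.9%, and at 18M they were 104%, 122% and 75.7%. The Hsd3b1 sum of 18M-2 holds 262 reads (12.1%) of MSTRG.13233.1, an assembled transcript that spans both genes. Some of these can be Hsd3b6 reads, which would raise the 122%. The 18M mice were above all 3M mice, and the mean log2 ratio was 1.14 higher at 18M (p = 0.1 by a two-sided exact permutation test, which cannot give a smaller value with 3 mice per age). Summed as 1 gene, the pair had a slope of -0.0385 (SE 0.0123, unadjusted p = 0.00832, adjusted p = 0.199, edgeR), a sum that was tried after the data had been seen.

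Hsd17b3 (chr13:64058274-64089201, minus strand, 11 exons), which makes testosterone from androstenedione, measured 14.3, 15.03 and 15.1 CPM at 3M, 13.2, 14.3 and 17.6 CPM at 6M, 9.45, 9.35 and 11.7 CPM at 12M and 11.1, 9.08 and 6.19 CPM at 18M. As with Cyp11a1, the mice of the older 2 ages were all below those of the younger 2, and 18M-1 was within the 12M range. The slope of -0.0569 (SE 0.0116, unadjusted p = 3.05e-04, adjusted p = 0.0826, edgeR) did not pass, and it passed without 18M-1 (-0.0689, adjusted p = 0.0232). Srd5a1 (chr13:69573449-69611463, minus strand, 5 exons), a 5 alpha-reductase, ranged from 4.69 to 5.66 CPM over all mice, with a slope of -0.0105 (SE 0.00578, adjusted p = 0.402).

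The electron donors had slopes closer to 0 than the P450 enzymes they serve. Por (chr5:135689145-135735326, plus strand) measured 18.1, 18.5 and 18.8 CPM at 3M, 20.3, 20.1 and 19.6 CPM at 6M, 17.6, 18.2 and 17.0 CPM at 12M and 16.7, 16.5 and 16.6 CPM at 18M. Its mice differed little within an age (coefficients of variation from 0.593% to 3.39%), all 18M mice were below all others, and the slope was -0.0141 (SE 0.00409, unadjusted p = 0.0045, adjusted p = 0.173). Under alternative processing with no library left out, the Por slope went as low as -0.0622. Fdxr (chr11:115268025-115276969, minus strand) ranged from 25.4 to 26.2 CPM at 3M and from 24.0 to 33.9 CPM at 6M. It ranged from 18.9 to 24.7 CPM at 12M and from 21.9 to 23.2 CPM at 18M, with a slope of -0.0205 (SE 0.00862, adjusted p = 0.289). Fdx1 (chr9:51943025-51963602, minus strand) measured 27.0, 32.0 and 26.0 CPM at 3M and 26.2, 26.8 and 45.8 CPM at 18M, with a slope of 0.0106 (SE 0.0114, adjusted p = 0.691) that was negative in limma on FPKM, with annotated transcripts alone and without 18M-3.

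The Fdx1 value of 18M-3 came from 1 long assembled transcript. MSTRG.20872.3 (13041 nt, 4 exons) took 1738 reads in 18M-3, 940 in 12M-3, 891 in 6M-3 and between 213 and 348 in the other 9 libraries. Without it, Fdx1 lay between 18.1 and 26.5 CPM in all mice, and 18M-3 had 21.6 CPM. The whole gene in FPKM, with this transcript included and its length taken into account, lay between 9.81 and 12.2. The coverage of the exon chr9:51948577-51948706, which all 4 Fdx1 transcripts share, scaled to the library total as in CPM but without TMM, averaged 4.79 ± 0.117 at 3M and 4.77 ± 0.375 at 18M (SD, n = 3, p = 1 by a two-sided exact permutation test). This exon was examined after the reads by transcript had been seen.

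Both P450 enzymes were also set against their redox partners within each library. The RNA came from whole testis, and the share of Fdx1 and Por reads that came from Leydig cells was not measured. The ratios are therefore those of the tissue and need not hold within Leydig cells. Cyp11a1 FPKM was 3.08 ± 0.355 times that of Fdx1 at 3M and 1.15 ± 0.469 times at 18M, and Cyp17a1 was 11.4 ± 2.38 times Por at 3M and 4.71 ± 0.547 times at 18M. The ages did not overlap in either ratio (exact permutation test, p = 0.1 for each, the smallest possible). Fdx1 (9.81 to 12.2 FPKM) and Por (5.79 to 7.44 FPKM) varied little, so these separations follow from the declines given above. Cyp17a1 was also separated against Star (8.95 ± 0.959 and 5.75 ± 0.825) and Hsd3b6 (1.90 ± 0.151 and 1.36 ± 0.0944). The ratio of Hsd17b3 to Cyp17a1 overlapped. The ratio of Cyp11a1 to Cyp17a1 overlapped, with 0.446 ± 0.0222 at 3M and 0.407 ± 0.103 at 18M (exact permutation test, p = 0.5).

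Across the 10 genes, the slope called 2, both lower with age, where 0.171% of 25166 genes tested were called in either direction and 0.115% were called lower. At an unadjusted p of 0.05 or less 7 of 10 were lower and 0 higher, against 8.27% and 7.08% of all genes, and DESeq2 called 5 (the 2 above with Star, Hsd3b6 and Hsd17b3), where it called 2.23% of all genes. The median slope of the members was -0.0387 log2 units per month, against 0.000149 over all genes. In RNA of whole testis, fewer Leydig cells and less RNA per Leydig cell cannot be told apart.

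Between 18M and 3M directly, edgeR called 0 of the 10 (background 0.0685% of 24809 genes), with 7 lower at an unadjusted p of 0.05 or less (background 6.36%). DESeq2 called 4 (Cyp17a1, Cyp11a1, Hsd3b6 and Hsd17b3), against 1.21% of all genes. The log2 change was -1.44 (SE 0.162, adjusted p = 0.0695, edgeR) for Cyp17a1, -1.54 (SE 0.273, adjusted p = 0.290) for Cyp11a1 and -0.94 (SE 0.160, adjusted p = 0.254) for Hsd3b6. All 3 CPM values of 18M were below all 3 of 3M in 8 of 10 genes, the exceptions being Hsd3b1 and Fdx1, where 9.83% of all genes showed this. In none of the 10 were all 18M values above those of 3M, which 9.72% of all genes showed.

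**Figure D3:**
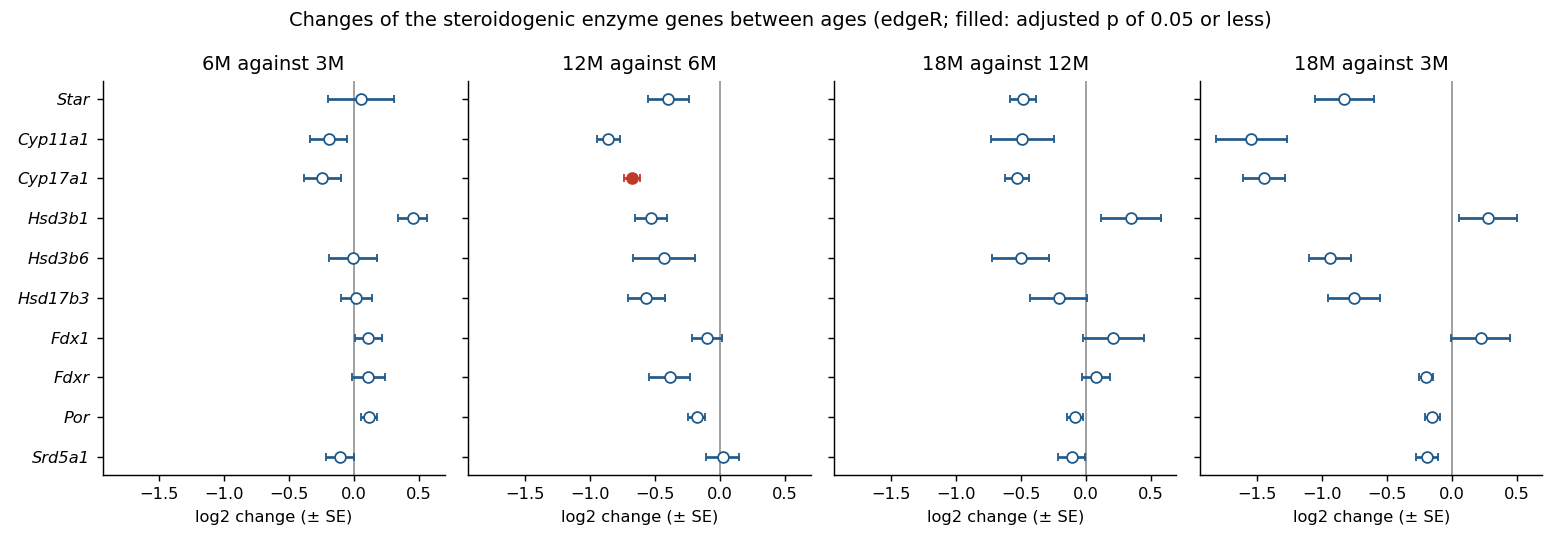
Log2 change of each gene with its standard error in 4 comparisons of ages (edgeR), with filled red points for an adjusted p of 0.05 or less. The only filled point is Cyp17a1 in 12M against 6M at -0.68, and 9 of 10 genes lie left of 0 in that comparison.

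The interval from 6M to 12M held the 1 call between consecutive ages. Cyp17a1 was lower by a log2 change of -0.68 (SE 0.0624, adjusted p = 0.0355, edgeR), where 0.0242% of 24791 genes were called lower. Cyp11a1 followed with -0.86 (SE 0.0902, adjusted p = 0.0627), Hsd17b3 with -0.57 (SE 0.144, adjusted p = 0.647) and Hsd3b1 with -0.53 (SE 0.123, adjusted p = 0.642). In all, 7 of 10 were lower at an unadjusted p of 0.05 or less, against 3.94% of all genes, and DESeq2 called 4, against 0.593%. The call of Cyp17a1 was lost without 6M-2, 12M-1, 12M-2 or 12M-3, and with the mouse number as a replicate block.

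From 3M to 6M edgeR called 0 of the 10 (background 0.0686%), with 1 higher at an unadjusted p of 0.05 or less (background 2.21%). This was Hsd3b1, with a log2 change of 0.45 (SE 0.112, adjusted p = 0.990, edgeR), and it was the 1 member that DESeq2 called (background 0.359%). From 12M to 18M edgeR also called 0 (background 0.0201%), with 2 lower at an unadjusted p of 0.05 or less, Cyp17a1 (-0.53, SE 0.0923) and Star (-0.48, SE 0.0974), against 1.79% of genes. DESeq2 called these 2 (background 0.213%). The Star level at 12M includes the reads of MSTRG.19488.1 in 12M-2, as given above. Consecutive comparisons share the mice of an age, so a low or high mouse enters both.

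The highest mouse of an age was counted over the 10 genes. At 3M, 3M-2 was the highest of its age in 7 of 10 genes (Star, Cyp11a1, Cyp17a1, Hsd3b1, Hsd3b6, Fdx1 and Fdxr), and in 32.6% of all 25166 genes. At 6M, 6M-3 was the highest in 7 (Star, Cyp17a1, Hsd3b1, Hsd3b6, Hsd17b3, Fdx1 and Fdxr; 36.7% of all genes), with Insl3 at 936 CPM against 490 and 558 CPM in its group. At 18M, 18M-1 was the highest in 7 (Cyp11a1, Cyp17a1, Hsd3b1, Hsd3b6, Hsd17b3, Fdxr and Por; 37.9% of all genes). The 12M mice were divided, with 12M-2 the highest in 5 genes and the lowest in the other 5 (highest in 33.5% of all genes), and 12M-1 and 12M-3 the highest in 2 and 3. The part of these mice in the results was followed by leaving out each library, and both calls of the slope held in each of the 12 fits with 1 library left out. Without the 3 libraries of 18M, an alternative added later, edgeR called 0 members, with slopes of -0.10 for Cyp17a1 (adjusted p = 0.066) and -0.12 for Cyp11a1 (adjusted p = 0.0506).

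The enzymes were next set against Insl3, which Leydig cells make at a high level and which needs no scaling between libraries when used as a ratio within 1 library. Insl3 measured 840, 946 and 922 FPKM at 3M, 778, 889 and 1516 FPKM at 6M, 676, 701 and 659 FPKM at 12M and 860, 683 and 627 FPKM at 18M. The Insl3 slope itself came to -0.0336 (SE 0.0140, adjusted p = 0.288, edgeR), so it is no fixed reference. The ages 3M and 18M overlapped in Insl3 FPKM.

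Cyp17a1 stood at 8.53% ± 1.60 of Insl3 at 3M and 3.93% ± 0.239 at 18M (SD, n = 3). Cyp11a1 stood at 3.78% ± 0.599 and 1.59% ± 0.328, Hsd3b6 at 4.48% ± 0.631 and 2.90% ± 0.151, and Hsd17b3 at 1.196% ± 0.0409 and 0.875% ± 0.138. In these 4 genes every 18M mouse was below every 3M mouse, with log2 differences of -1.10, -1.26, -0.62 and -0.46. The ratio of Hsd3b1 was the reverse, at 1.996% ± 0.158 and 2.89% ± 0.584, with every 18M mouse above every 3M mouse. Hsd3b1 FPKM itself overlapped, with 17.0, 20.2 and 16.85 at 3M and 26.9, 22.7 and 14.0 at 18M. In 18M-3 Hsd3b1 was below all 3M mice, and the ratio was above theirs through the lower Insl3 of that mouse. Star, Fdx1, Fdxr, Por and Srd5a1 overlapped between the ages. Each of the 5 separated genes had p = 0.1 by the two-sided exact permutation test, the smallest possible with 3 mice against 3, and 10 such ratios were compared, so none could pass. The share of all genes that separate in such a ratio was not computed. All 10 ratios have the same denominator, so a high or low Insl3 value enters each of them.

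**Figure D4:**
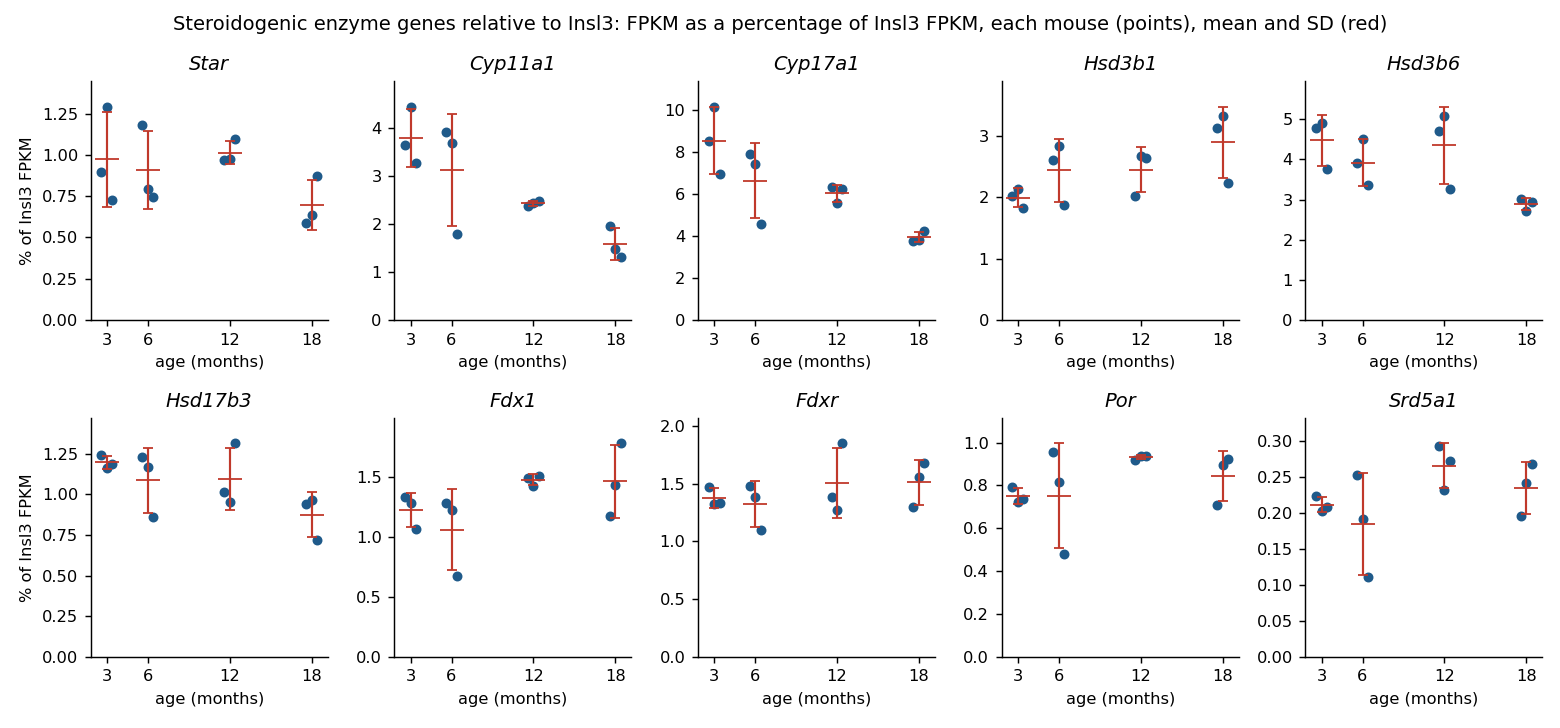
FPKM of each gene as a percentage of Insl3 FPKM in the same library against age, with each point a mouse and the red bar the mean and SD of 3 mice. Cyp17a1 goes from 8.53% at 3M to 3.93% at 18M, while Hsd3b1 goes from 1.996% to 2.89%, and 6M-3, with its high Insl3, is the lowest 6M point in each gene.

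Other markers of Leydig cells were measured beside the enzymes. Of 7 markers, Prlr, the prolactin receptor, was called (slope -0.0582, SE 0.00974, adjusted p = 0.041, edgeR), and 6 were lower at an unadjusted p of 0.05 or less, against the background of 8.27%. Lhcgr had a slope of -0.0964 (SE 0.0174, adjusted p = 0.0547), close to those of Cyp17a1 and Cyp11a1, and its CPM was 2.31, 4.197 and 1.88 at 3M and 1.18, 1.19 and 1.08 at 18M. The summed level of the 7 markers lay between 747 and 818 CPM at 3M, 730 and 1205 CPM at 6M, 569 and 636 CPM at 12M and 530 and 737 CPM at 18M. The summed level of the 10 enzymes lay between 405 and 547 CPM at 3M and between 246 and 304 CPM at 18M.

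Markers of other testis cells were counted in the same way for the slope. Over all genes edgeR called 0.171%, and 8.27% were lower and 7.08% higher at an unadjusted p of 0.05 or less. Against these shares, counts in lists this short say little. Of 6 fibroblast and stroma markers, Col1a2 was called (slope -0.0765, SE 0.0108, adjusted p = 0.0151) and 4 were lower at an unadjusted p of 0.05 or less, and their sum lay between 47.6 and 69.4 CPM at 3M and between 31.5 and 44.8 CPM at 18M. All 6 spermatid markers had positive slopes, with 0 called by edgeR and 2 past an unadjusted p of 0.05 (Acrv1 and Spaca1). None of 10 Sertoli cell, 9 macrophage, 5 endothelial or 5 peritubular markers was called, with 1, 1, 2 and 0 lower at an unadjusted p of 0.05 or less. The part of these cell types in the result for the enzymes was not tested.

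Transcript-level reads showed which isoforms carried the gene sums. Of 24 member transcripts, 22 could be tested for a slope, and edgeR called 1, the single Cyp17a1 transcript NM_007809 (-0.0986, SE 0.0083, adjusted p = 0.00204), where 0.00881% of 56784 transcripts were called. A further 5 were past an unadjusted p of 0.05 (background 6.99%). Between 18M and 3M edgeR called 0 of 22 (background 0.108%) and 6 were past an unadjusted p of 0.05 (background 5.40%). The annotated transcripts held all reads of Cyp17a1, Hsd3b6, Hsd17b3 and Srd5a1, 99.0% of those of Hsd3b1, 95.8% of Cyp11a1 and 92.5% of Star, but only 57.0% of Por, 34.7% of Fdx1 and 28.2% of Fdxr.

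**Figure D5:**
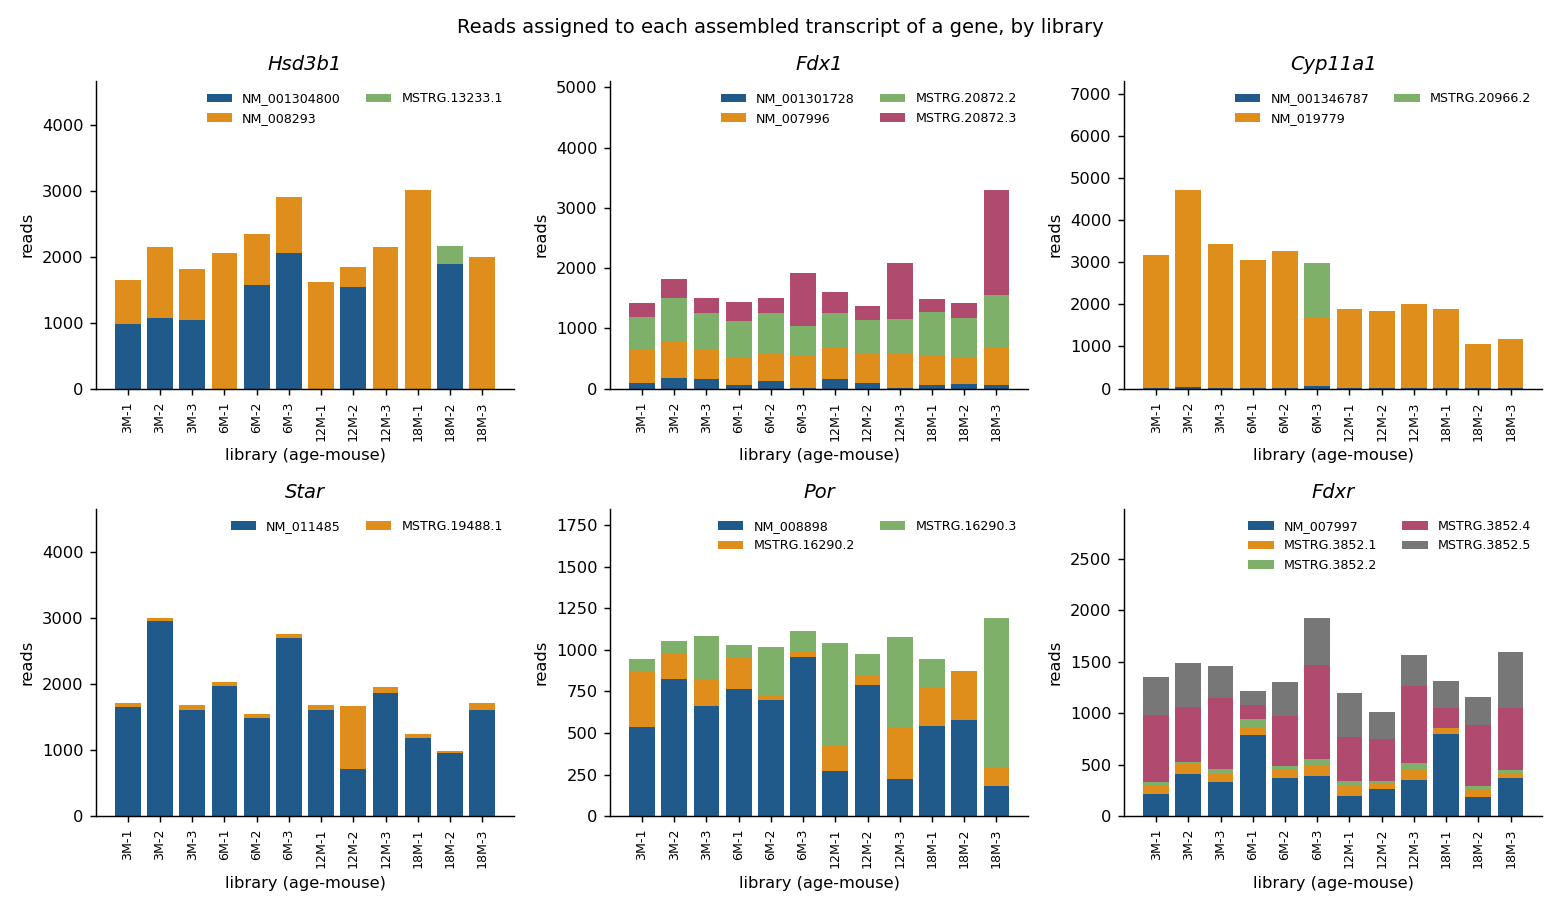
Estimated reads assigned to each transcript, stacked, for 6 genes in the 12 libraries (age and mouse number). The division between the transcripts of a gene changes from library to library, as in Hsd3b1, where NM_001304800 has 0 reads in 5 libraries and up to 2053 in others, and in Fdx1, where MSTRG.20872.3 has 1738 reads in 18M-3.

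Reads passed between isoforms of a gene from 1 library to the next. For Hsd3b1, NM_008293 held all reads in 6M-1, 12M-1, 12M-3, 18M-1 and 18M-3 and 0 in 18M-2, while the other 6 libraries had both annotated transcripts. In 18M-2, 262 reads (12.1% of the gene) went to MSTRG.13233.1, an assembled transcript of 5 exons that spans Hsd3b6 and Hsd3b1 (chr3:98805504-98858471) and had 0 reads elsewhere. For Cyp11a1, MSTRG.20966.2, which starts upstream of the main transcript (at 57999016 on chromosome 9) where Gm17322 is annotated, took 1289 reads (43.2%) in 6M-3 and 0 in the other 11 libraries. For Star, MSTRG.19488.1, whose first exon lies upstream (from 25785310 on chromosome 8) and overlaps the annotated gene Lsm1, took 945 reads (56.8%) in 12M-2 and between 38 and 104 elsewhere. The share of NM_008898 in Por ranged from 15.3% to 86.0%. These values limit what can be said of single isoforms, and some gene sums depend on them too. The Fdx1 sum in CPM turned on MSTRG.20872.3, as given above, and sums in FPKM, used for the order of the genes and for the ratios, depend on the lengths of the transcripts that took the reads. Sums can also hold reads of a neighbouring gene, such as Lsm1 for Star and Gm17322 for Cyp11a1.

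The other genes of the pathway were tested in the same fit. Of 33 other steroid enzymes and electron donors, 25 could be tested for a slope and edgeR called 0, with 7 lower and 3 higher at an unadjusted p of 0.05 or less, against backgrounds of 8.27% and 7.08%. The median slope of these 25 was -0.0125. The smallest p-values belonged to Cyb5r3, a cytochrome b5 reductase (-0.0149, SE 0.0033, adjusted p = 0.102), H6pd, which supplies NADPH in the endoplasmic reticulum (-0.0325, SE 0.00749, adjusted p = 0.116), and Hsd17b11 (-0.0513, SE 0.0118, adjusted p = 0.116). Of 26 genes of cholesterol supply and control, Prlr was called, 5 were lower and 1 higher at an unadjusted p of 0.05 or less, and the median slope was -0.00523. Prlr, Lhcgr and Nr5a1 stand in this list and among the Leydig markers. Nr5a1, a transcription factor of steroidogenic genes, had a slope of -0.0213 (SE 0.00731, adjusted p = 0.217), and Tspo and Scarb1 had adjusted p-values of 0.730 and 0.867.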

How the data were processed

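Testis RNA of 12 mice was sequenced as unstranded paired-end libraries after removal of ribosomal RNA. The authors aligned reads with HISAT2 to mm10 and assembled and quantified transcripts with StringTie 1.3.3b. The deposited read counts are estimated counts, equal to coverage times length over a read length of 101 nt which the authors rounded up to integers, and were used as deposited. The deposited FPKM values were scaled by the authors for length and mapped fragments only. For the 24 member transcripts and 1 antisense row, all 300 values checked equalled those of the deposited assemblies.

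Counts were summed per gene and tested with edgeR 4.0.16 in R 4.3.3 (TMM, filterByExpr, quasi-likelihood test, Benjamini-Hochberg adjustment over all genes, calls at an adjusted p of 0.05 or less). The slope on age used 12 libraries and each pair of ages its own 6. DESeq2 1.42.0 and limma 3.58.1 were alternatives, with library scalings, filters, other row classes, pseudocounts of 1 and 0.1, all 12 libraries in a pairwise fit, and libraries left out. Python 3.11.15 and scipy 1.17.1 served for ratios and exact tests, and the edgeR step was tested on simulated data. P-values measure the spread between mice. Counting intervals were not computed, because the counts are estimates.

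Members, gene lists and motifs were chosen with earlier results of these data known. Named are all members, list genes called in the slope or in 18M against 3M, Insl3 and Lhcgr, and, chosen after their values were seen, the list genes with the smallest p-values and Nr5a1, Tspo, Scarb1, Acrv1, Spaca1, Hsd3b4 and Cyp21a1. Fdx2 was matched through its older symbol Fdx1l, and Hsd3b8, Sts and Hbb-bt had no row.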

Additional observations from a re-analysis of the deposited data

Results flagged for a closer look

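A transcript assembled opposite to Fdx1, MSTRG.20873.1 (chr9:51963354-51971566, plus strand, 2 exons, 3918 nt), lies outside the sums above and had reads in each library, with 6 reads as the lowest value. It had 9, 10 and 11 reads at 3M, 10, 6 and 8 at 6M, 8, 6 and 15 at 12M and 18, 24 and 24 at 18M. The 18M mice were above all younger mice, which was not tested. The libraries carry no strand information, so reads of this transcript and of Fdx1 cannot be told apart where both lie.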

How the results depend on the processing

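The number of members called for the slope, 2 of 10, was also 2 under other scalings, filters, the replicate block, the robust fit, all class codes, limma on FPKM and log2 of age. It was 5 with DESeq2, 1 with annotated transcripts alone, 7 at unadjusted p, 0 without the libraries of 18M (added after seeing the data) and 2 to 3 with 1 library left out. For 18M against 3M the count of 0 became 4 with DESeq2, 2 with all 12 libraries in the fit and 7 at unadjusted p, and was 0 with each library left out. For 6M against 3M it was 1 with DESeq2 and 1 at unadjusted p, and for 18M against 12M 2 and 2. For 12M against 6M the count of 1 became 2 with library size only, the robust fit and limma on FPKM with either pseudocount, 4 with DESeq2 and 7 at unadjusted p. It became 0 with no filter, with the replicate block, with annotated transcripts alone, with all 12 libraries and with a log2 change of 1 required, and was 0 to 1 with 1 library left out. The cause of these differences was not tested.

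Same-numbered mice of different ages did not deviate together (correlations from -0.0906 to 0.0938 over 18 pairs, 3 of 12 libraries closest to their own number), so the numbers were not taken to pair mice, and the replicate block changed no count of members called other than that of 12M against 6M. Of 420 alternative values of single members, 18 changed sign, 10 passed newly and 3 no longer passed. The Hsd3b1 slope of 0.00199 became -0.0016 with annotated transcripts alone, -0.0027 and -0.00296 in limma on FPKM and -0.021 without the 18M libraries, and ranged from -0.0142 to 0.0127 with 1 library left out. The Fdx1 slope became -0.018, -0.0051, -0.0055 and -0.0012 under the same alternatives and ranged from -0.00795 to 0.0179. The Fdx1 change of 0.22 between 18M and 3M became -0.34 with annotated transcripts alone and -0.084 and -0.0904 in limma, and ranged from -0.0934 to 0.364. That of Fdxr, -0.20, became 0.41 with annotated transcripts alone. For Por, alternatives with no library left out gave slopes from -0.0622 to -0.0137. Its changes between 18M and 3M ran from -0.651 to -0.148 under these alternatives. Star, Hsd3b6, Hsd17b3, Fdxr and Por were past an unadjusted p of 0.05, but not past the adjusted threshold, for the slope and for 18M against 3M in edgeR.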

Other observations

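A set of 3 steroid genes outside the 10, of 25 tested, had higher levels with age at an unadjusted p of 0.05 or less. The share over all genes was 7.08%. Cyp19a1, the aromatase that forms estrogens, measured 8.08, 8.52 and 7.42 CPM at 3M, 8.71, 8.40 and 7.96 CPM at 6M, 8.86, 8.94 and 9.72 CPM at 12M and 8.84, 10.01 and 9.55 CPM at 18M (slope 0.0166, SE 0.00491, adjusted p = 0.177, edgeR). Cyp21a1, a 21-hydroxylase of the adrenal pathway, measured 1.298, 0.773 and 1.46 CPM at 3M, 2.27, 3.01 and 4.13 CPM at 6M, 1.86, 1.36 and 3.24 CPM at 12M and 5.23, 5.32 and 2.14 CPM at 18M (slope 0.0809, SE 0.0323, adjusted p = 0.269, edgeR). Hsd3b4, a relative of Hsd3b1, measured 0.592, 0.492 and 0.504 CPM at 3M and 1.87, 0.773 and 0.633 CPM at 6M. Its values were 0.661, 1.22 and 0.852 CPM at 12M and 1.86, 0.681 and 2.27 CPM at 18M (slope 0.0793, SE 0.0308, adjusted p = 0.260, edgeR). All 18M mice were above all 3M mice in each of these 3 genes, which 9.72% of all genes showed. The 3 genes were picked for their rise in the same mice, so this separation is no further support. None of the slopes passed. The mice of 18M spread more widely in Cyp21a1 and Hsd3b4 than in Cyp19a1.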
